A study of Mus musculus with 2 samples.

Results

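The protein kinase C genes examined were the 8 members Prkca, Prkcb, Prkcd, Prkce, Prkch, Prkci, Prkcq and Prkcz, out of 21317 protein-coding genes whose span and strand could be set on mm10. A peak was assigned to a gene when its summit lay between 10 kb upstream of the gene's 5' end and its 3' end, and 116 of the 35848 optimal peaks met this rule. The data are chromatin immunoprecipitation and sequencing (ChIP-seq) of TCF12, an E protein transcription factor of the basic helix-loop-helix class that binds the E-box CANNTG. The cells were CH12.LX, an immortalised mouse B-cell lymphoma line of strain B10.H-2aH-4bp/Wts from a female donor, with no treatment or genetic change given in the labels. There was 1 group of 2 biological replicates of this 1 line, so nothing here compares conditions and no test between groups was possible. Of the genes that define a B cell line, Pax5, Cd79a, Cd79b, Ebf1 and Ms4a1 each had an optimal peak, but ChIP-seq does not measure whether a gene is expressed.

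Protein kinases C are serine and threonine kinases that carry signals from lipid messengers at the membrane. The classical kinases PKCalpha (Prkca) and PKCbeta (Prkcb) need calcium and diacylglycerol. PKCdelta (Prkcd), PKCepsilon (Prkce), PKCeta (Prkch) and PKCtheta (Prkcq) respond to diacylglycerol without calcium, and the atypical kinases PKCiota (Prkci) and PKCzeta (Prkcz) respond to neither. In B cells, PKCbeta links the B cell receptor through BCL10 and MALT1 to NF-kappaB, and PKCdelta acts in B cell tolerance, while PKCtheta is best known from the T cell receptor pathway.

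The sequences at the strongest peak of each member show where E-boxes lie under the binding. They come from the separate mm9 peak list and the mm9 genome, because sequence on mm10 was used only for promoters. Each is the summit base with 50 bases to either side, read on the plus strand of the chromosome. Capitals mark CAGCTG and CACCTG, with CAGGTG being CACCTG read on the other strand. The windows are Prkca at chr11:108065707-108065807, Prkcb at chr7:129541365-129541465, Prkce at chr17:86753178-86753278 and Prkch at chr12:74827305-74827405, all in introns. The windows of Prkcd at chr14:31439707-31439807, Prkci at chr3:30894246-30894346 and Prkcz at chr4:154735661-154735761 lie just upstream of the annotated gene.
Prkca: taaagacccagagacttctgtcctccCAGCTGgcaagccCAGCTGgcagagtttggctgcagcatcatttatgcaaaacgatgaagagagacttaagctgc
Prkcb: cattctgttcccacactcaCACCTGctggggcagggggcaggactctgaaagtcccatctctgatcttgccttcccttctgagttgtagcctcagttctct
Prkcd: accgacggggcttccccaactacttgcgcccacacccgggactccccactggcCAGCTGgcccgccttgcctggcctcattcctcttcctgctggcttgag
Prkce: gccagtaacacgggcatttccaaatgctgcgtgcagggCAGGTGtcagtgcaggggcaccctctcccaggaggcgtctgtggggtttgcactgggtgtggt
Prkch: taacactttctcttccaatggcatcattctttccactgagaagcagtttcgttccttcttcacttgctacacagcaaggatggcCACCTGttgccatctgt
Prkci: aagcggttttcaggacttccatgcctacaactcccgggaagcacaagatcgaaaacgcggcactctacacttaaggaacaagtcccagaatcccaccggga
Prkcz: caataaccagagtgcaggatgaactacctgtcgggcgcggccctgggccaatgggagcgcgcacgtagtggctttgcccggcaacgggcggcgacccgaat
The Prkca window holds CAGCTG at 2 places. The windows of Prkcb, Prkce and Prkch each hold CACCTG once, and that of Prkcd holds CAGCTG once. The windows of Prkci and Prkcz hold neither, which says only that these letters are not in these windows. For Prkci the strongest peak differs between the lists. The peak 4.48 kb into the gene, which corresponds by its distance to the strongest on mm10, had 44.6 on mm9 against 47.3 for the window shown, and it holds CAGCTG. Prkcq had no peak in the mm9 list.

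A pair of further sequences is shown for repeated E-boxes, both chosen after their values were seen. The first is an intronic Prkca peak at chr11:107981246-107981346 on mm9, plus strand, with the same capitals. The second is the Prkcb promoter from RefSeq on GRCm38.p6, chr7:122288875-122289154 on the plus strand, which is also the strand of the gene. Its capitals mark CAGCTG and the octamer ATGCAAAT, the motif of OCT factors in immunoglobulin promoters.
Prkca repeat: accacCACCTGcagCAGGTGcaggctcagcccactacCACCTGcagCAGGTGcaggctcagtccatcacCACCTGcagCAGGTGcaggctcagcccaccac
Prkcb promoter: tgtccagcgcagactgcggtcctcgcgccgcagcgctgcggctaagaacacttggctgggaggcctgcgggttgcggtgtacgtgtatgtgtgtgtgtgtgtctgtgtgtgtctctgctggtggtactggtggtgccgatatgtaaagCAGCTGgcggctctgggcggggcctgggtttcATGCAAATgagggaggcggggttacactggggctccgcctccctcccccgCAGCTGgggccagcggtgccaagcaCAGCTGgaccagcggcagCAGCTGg
The Prkca window holds CACCTG 6 times, counting both strands. As many or more were in 11 of the 23572 mm9 peaks on chromosomes 1 to 19 and X, or 0.0467%. The Prkcb promoter holds CAGCTG at 4 places, beginning at positions -102, -20, 5 and 23 from the start in the RefSeq table. Of 32851 RefSeq promoters of 300 bases, 9 (0.0274%) held at least 4 copies. Its octamer begins at position -70, and 1.74% of promoters held one. In the other RefSeq promoters at the 5' ends of members, Prkcd held CACCTG at -35 and Prkcz at -90 and -57, while Prkca, Prkci and Prkcq held neither E-box. Either was present in 32.9% of all promoters. The strongest promoter summits of Prkcd and Prkci lay at -340 and -396 from the RefSeq starts, outside these 300 bases. The CACCTG of Prkcd was 307.5 bp from its summit.

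Every member had at least 1 optimal peak. Across all genes 57.2% did, and 69.1% of the 7247 genes whose windows were at least as long as the shortest member window. A peak within 1 kb of the 5' end was present at 7 of 8 members, all but Prkcq, against 40.6% of all genes. Of the 116 peaks, 92 (79.3%) lay in Prkca, Prkce and Prkcb, which are also the longest genes. Gene bodies held 105 peaks (90.5%), promoters 8 and the upstream parts 3, and 96 (82.8%) lay more than 10 kb into the gene. The windows total 1838 kb and reach only 10 kb upstream of each gene. Most of the searched length was thus gene body, so this split does not show a preference for it. The window leaves out peaks just beyond it, such as one of 128 lying 1.56 kb past the 3' end of Prkch and one of 77.2 lying 15.5 kb upstream of Prkcd, while the farthest upstream peak inside it was that of Prkcz at -7.45 kb.

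**Figure D1:**
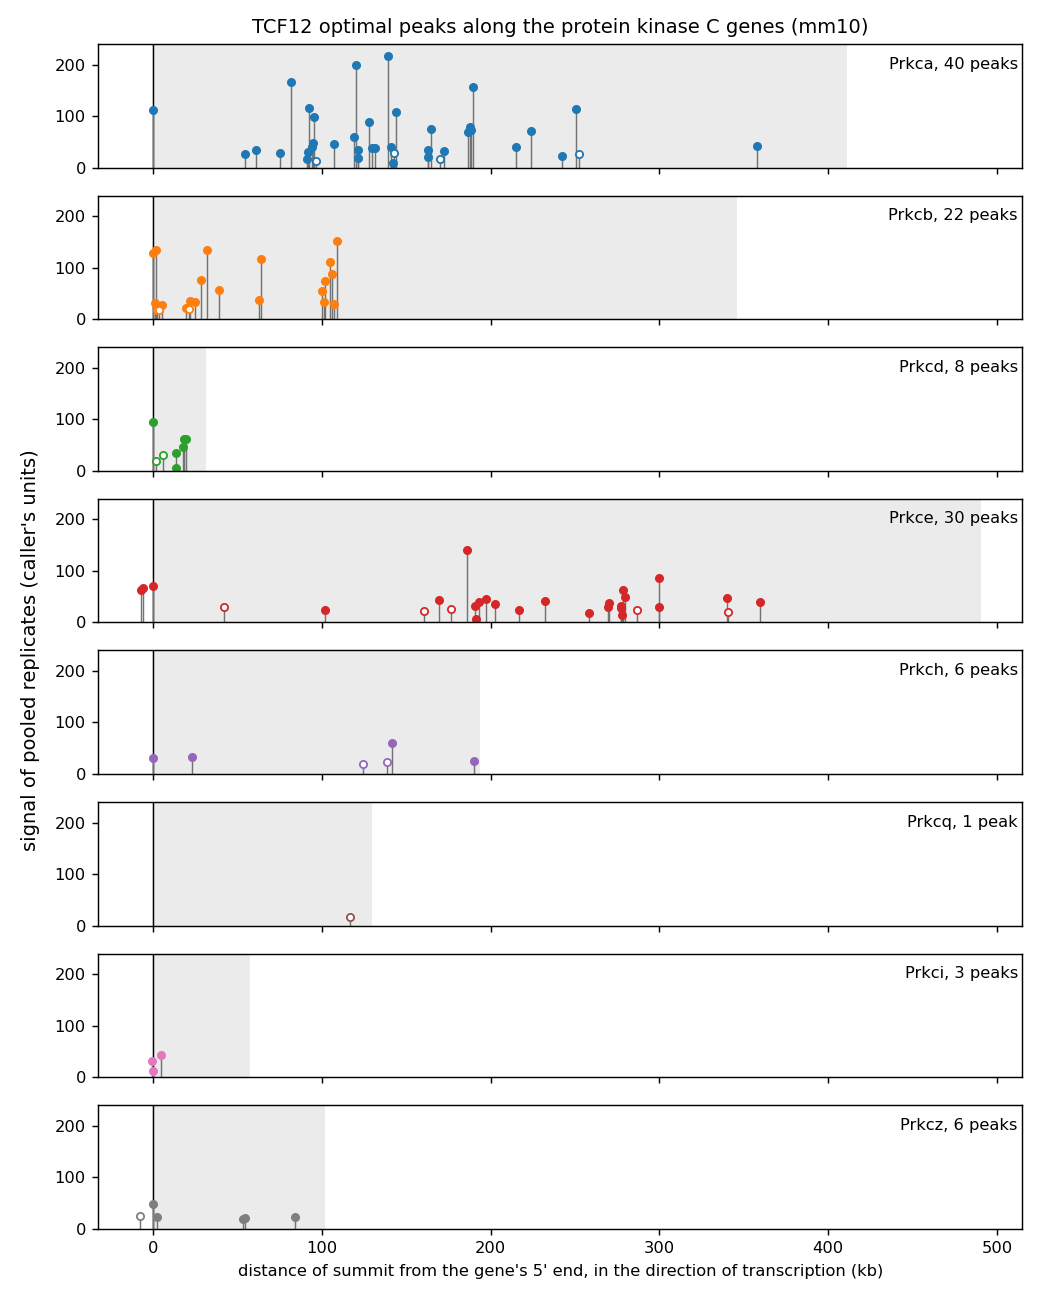
Distance of each summit from the 5' end in kb (x axis) against the signal of the pooled replicates in the caller's units (y axis), 1 panel per gene, with the gene span shaded. Filled circles overlap a peak of the conservative list and open circles do not. Prkca holds 40 peaks reaching 217, while Prkcq holds 1 peak of 16.4.

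Signal is the peak caller's own value as deposited, without a stated scale, and it ranks peaks in 1 list or compares both replicates peak by peak. A ratio between replicates can hold a difference in scale between their lists. The members' peaks ran from 5.66 to 217 with a median of 35.9, near the median of 35.0 over all optimal peaks. A signal of at least 100 was reached by 15 peaks (12.9%), against 9.02% of all optimal peaks. Of those 15, 14 were in the classical genes Prkca and Prkcb, 1 was in Prkce and none was in an atypical gene. Pooled by class, the classical genes held 62 peaks with a median signal of 40.5 and the calcium-independent genes 45, 30 of them in Prkce, with 31.8. The atypical genes held 9 with 22.8. By gene the medians were 40.5 in Prkca, 45.8 in Prkcb, 40.4 in Prkcd, 34.1 in Prkce and 28.5 in Prkch. They were 16.4 in Prkcq, 31.6 in Prkci and 22.7 in Prkcz. Both classical medians stood above the others, though Prkca at 40.5 was close to Prkcd at 40.4. The calcium-independent and atypical genes overlap. With 2 classical, 4 calcium-independent and 2 atypical genes, the pooled medians do not describe a class.

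The windows differ in length, so counts were also set per 100 kb. Genes of like length had a median of 1 peak at the lengths of Prkca, Prkcb, Prkce and Prkcd alike. The members held 6.31 peaks per 100 kb of window, against 2.57 over all windows. The relaxed lists, which carry background as well as peaks, were also denser over the members. They held 37.7 against 17.1 per 100 kb in replicate 1, and 32.3 against 16.6 in replicate 2. What part local background has in the density of optimal peaks was not tested. By density the order was Prkcd (19.5 per 100 kb), Prkca (9.51), Prkcb (6.19), Prkce (5.998), Prkcz (5.39), Prkci (4.48), Prkch (2.95) and Prkcq (0.718). Each is a single count without a spread, so neighbours in this order cannot be separated.

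**Figure D2:**
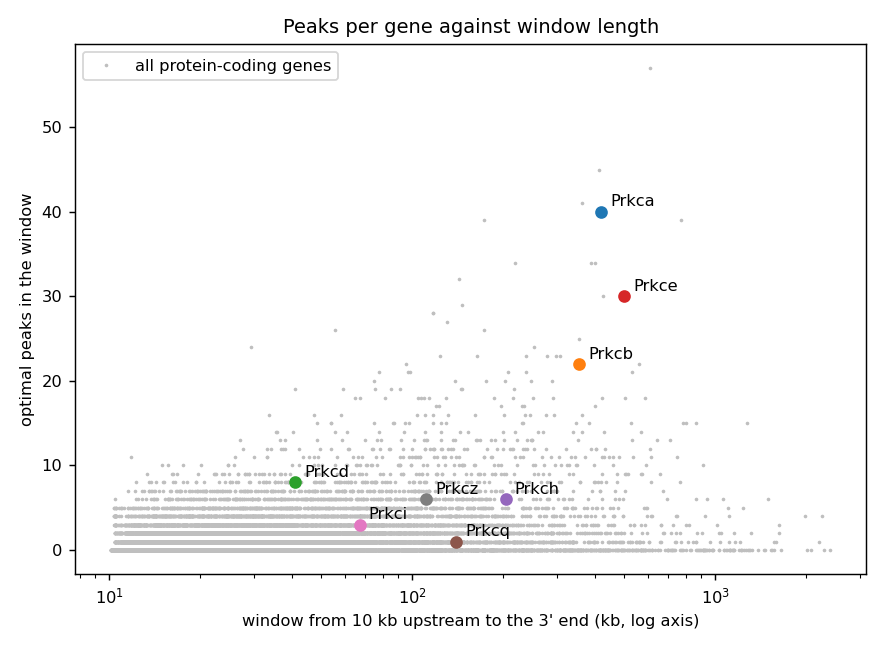
Optimal peaks per gene (y axis) against the length of the gene's window in kb on a log axis (x axis), with grey points for all protein-coding genes and coloured points for the members. Prkca, Prkce, Prkcb and the shorter Prkcd lie near the top of the genes of their length. Prkcq, with 1 peak, lies below the median of 2 at its length.

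Prkca was the most heavily marked member and ranked 4 by number of peaks among all genes. Of 276 genes with windows within a factor of 1.25 of its length, 3 (1.09%) had at least as many peaks. Its strongest peak, on chromosome 11 from 108204344 to 108204525, lay 139 kb into the gene with a signal of 217, from 159 in replicate 1 and 54.0 in replicate 2. The peak at 121 kb, from 108223232 to 108223487, had 199 (96.7 and 100.5). The peak at 82.0 kb, from 108261820 to 108262004, had 166 (95.9 and 68.5). All 3 stood above the promoter peak, which lay 19 bp upstream of the 5' end with 111 (74.3 and 38.5). The peaks were grouped into stretches, taken as at least 4 summits with no gap over 12 kb, counting overlapping peaks separately. Whether such stretches go beyond random placement along the gene was not tested. There were 10 peaks from 75.2 to 107 kb, 12 from 119 to 144 kb, 5 from 163 to 172 kb and 4 from 187 to 190 kb.

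Prkcb, whose kinase links the B cell receptor to NF-kappaB, had 22 peaks, and 10 of 348 genes of like length (2.87%) had at least as many. Its strongest, on chromosome 7 from 122397790 to 122397975, lay 109 kb into the gene with 152 (103 in replicate 1 and 48.2 in replicate 2). A peak 1.89 kb into the gene, from 122290918 to 122291096, had 135 (66.4 and 68.9). Another, at 31.9 kb from 122320944 to 122321099, had 134 (85.5 and 49.7). Here the promoter peak was of similar height, at 128 (77.3 and 53.5) and 34 bp inside the 5' end of the gene span, over the stretch of CAGCTG copies printed above. Prkcb peaks fell in a run of 6 from 0.034 to 5.24 kb, 7 from 19.7 to 39.1 kb and 7 from 99.9 to 109 kb. The peak at 109 kb was the last: no optimal summit lay in the remainder of this gene, and the next lay 335 kb past its 3' end.

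Among the calcium-independent genes, Prkcd was short and densely marked, with 8 peaks in a 41.1 kb window. Of 3320 genes of like length, 65 (1.96%) had at least as many. Its strongest peak was at the promoter, on chromosome 14 from 30626470 to 30626645, with 95.7 (76.6 in replicate 1 and 21.5 in replicate 2). The next, at 18.5 kb and 19.3 kb, from 30607739 to 30608122 and from 30606881 to 30607264, had 62.6 (46.8 and 18.1) and 61.4 (41.0 and 20.8). Replicate 1 was well above replicate 2 at each of the 3.

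Prkce, the longest member at 500.1 kb of window, had 30 peaks, and 5 of 222 genes of like length (2.25%) had at least as many. A single peak stood out, on chromosome 17 from 86353866 to 86353977 and 186 kb into the gene, with 141 (82.0 in replicate 1 and 55.0 in replicate 2). The peak at 300 kb, from 86467379 to 86467762, had 86.3 (53.1 and 36.4, shared with a neighbouring peak), and the promoter peak, from 86167408 to 86167791, had 71.6 (46.6 and 26.7). Prkce was the member with a pair of upstream peaks, at -5.78 and -6.92 kb from the 5' end, of 66.2 and 63.4. Its body peaks held stretches of 9 from 160 to 203 kb and 9 from 258 to 287 kb. Some of these peaks overlap, and merging overlapping peaks left 26 in Prkce and 37 in Prkca.

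Prkch had 6 peaks, and 17.7% of genes of like length had at least as many. The strongest, on chromosome 12 from 73726163 to 73726546 and 142 kb into the gene, had 61.0 (38.7 in replicate 1 and 22.7 in replicate 2). The others did not pass 33.2, the value of the peak at 22.9 kb from 73607485 to 73607868 (15.6 and 17.6). The promoter peak, from 73584556 to 73584939, had 31.8 (19.5 and 12.9). Prkcq, the T cell member, was the least marked. Of 1088 genes of like length, 71.4% had at least as many peaks, with a median of 2. Its only peak, on chromosome 2 from 11288314 to 11288697 and 117 kb into the gene, had 16.4 (13.8 and 3.07) and an IDR score of 571. That score, up to 1000, comes from the IDR step, which grades how well a peak's rank repeats. It need not measure agreement between replicates 1 and 2. A Prkce peak at 278 kb scored 933 with no replicate 2 entry overlapping it. The Prkcq peak was not in the authors' conservative list. Within 1 kb of the Prkcq 5' end the relaxed lists held only weak entries, of 5.89 in replicate 1 and 4.89 in replicate 2.

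Among genes of like length, 29.2% had at least as many peaks as Prkci and 12.8% at least as many as Prkcz. No peak of the atypical genes passed 47.9. Prkci had 3, the strongest on chromosome 3 from 31000039 to 31000422, 4.49 kb into the gene, with 43.2 (25.3 in replicate 1 and 16.2 in replicate 2). Its other peaks, of 31.6 and 12.8, overlap each other at the promoter, from 30995183 to 30995566 and from 30995477 to 30995860, and share 1 peak in each replicate (20.1 and 10.5). Prkcz had 6, led by its promoter peak on chromosome 4 from 155361403 to 155361786, with 47.9 (34.8 and 14.9). The next Prkcz peaks were at -7.45 kb, from 155368690 to 155369073, with 24.7 (18.0 and 4.16), and at 84.4 kb, from 155276839 to 155277222, with 22.8 (11.9 and 9.66).

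At 115 of the 116 peaks an entry of each replicate's relaxed list overlapped the peak. These lists carry background, so an overlap alone does not show a peak in that replicate. At a Prkcd peak the replicate 2 entry, of 2.61, lay below the median of 4.27 for replicate 2 entries in that window. Replicate 1 was higher at 94 and replicate 2 at 21. Over all optimal peaks found in both, replicate 1 was higher at 85.7%. The median ratio of replicate 1 to replicate 2 was 1.74 (interquartile range 1.24 to 2.70), beside 1.66 over the 34817 optimal peaks found in both. At peaks of 100 or more it was 1.49 (range 0.962 to 2.94), beside 1.52 over all such optimal peaks. At the 38 peaks under 30 it was 2.09, beside 1.74 over all such optimal peaks, with single ratios up to 8.63. The largest ratio at any member's peak, 11.1, was at a Prkcd peak of 30.5, 6.01 kb into the gene (28.9 and 2.61). The optimal list had already been selected for ranks that repeat, and 7 pairs of neighbouring peaks shared the same replicate peaks, among them the pair at 300 kb in Prkce. Of the 116, 64 (55.2%) had the top IDR score of 1000, against 53.9% of all optimal peaks. The 18 that overlapped no conservative peak had a median signal of 21.6 and at most 30.5. The share of all optimal peaks without such an overlap was not computed, so 18 cannot be called many or few.

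**Figure D3:**
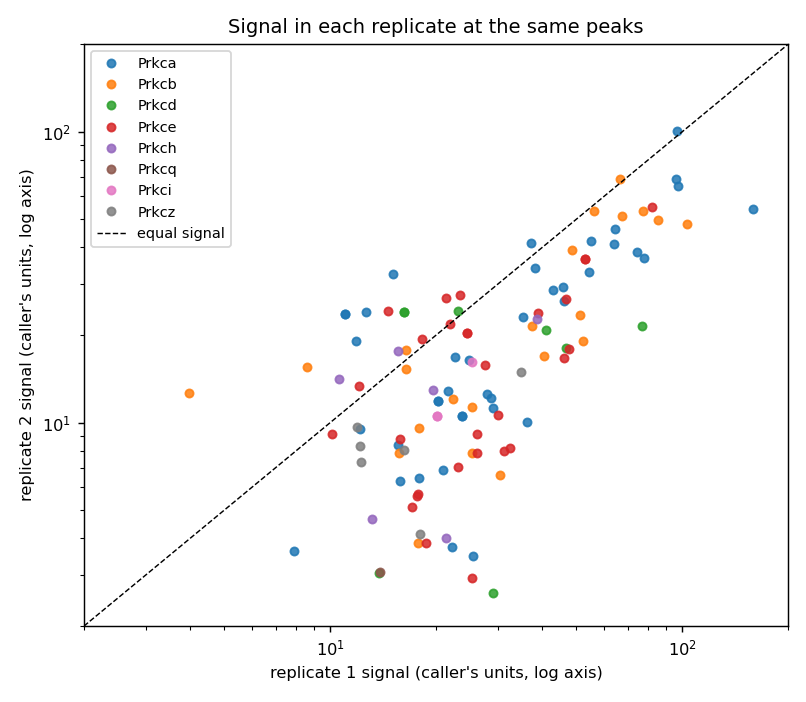
Signal of replicate 1 (x axis) against replicate 2 (y axis) at the same optimal peak, both in the caller's units on log axes, coloured by gene, with a dashed line of equal signal. Replicate 1 is higher at 94 of 115 peaks, and the points spread most at low signal.

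E-boxes at the summits were counted on the mm9 list, where 80 peaks fell in the members' windows: 28 in Prkca, 20 in Prkce, 16 in Prkcb, 6 in Prkcd, 4 in Prkch and 3 each in Prkci and Prkcz. Of these, 69 were in introns, 3 in exons and 8 outside the gene. CAGCTG or CACCTG lay wholly within 50 bp of the summit in 29 of 80 (36.3%, 95% Wilson interval 26.6 to 47.2), against 31.0% of all mm9 peaks, which lies within that interval. In separate windows of the same length, centred 300 bp to the left and to the right of each summit, the shares were 8.75% for the members and 12.2% for all peaks. By gene it was 11 of 16 peaks in Prkcb (68.8%, 44.4 to 85.8) and 4 of 6 in Prkcd (66.7%, 30 to 90.3). It was 7 of 28 in Prkca (25%, 12.7 to 43.4) and 5 of 20 in Prkce (25%, 11.2 to 46.9). The Wilson intervals cover counting error only and treat neighbouring peaks as independent. Those of Prkcb and Prkca do not overlap, but the genes were picked out after their values were seen and no test of the difference was made.

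**Figure D4:**
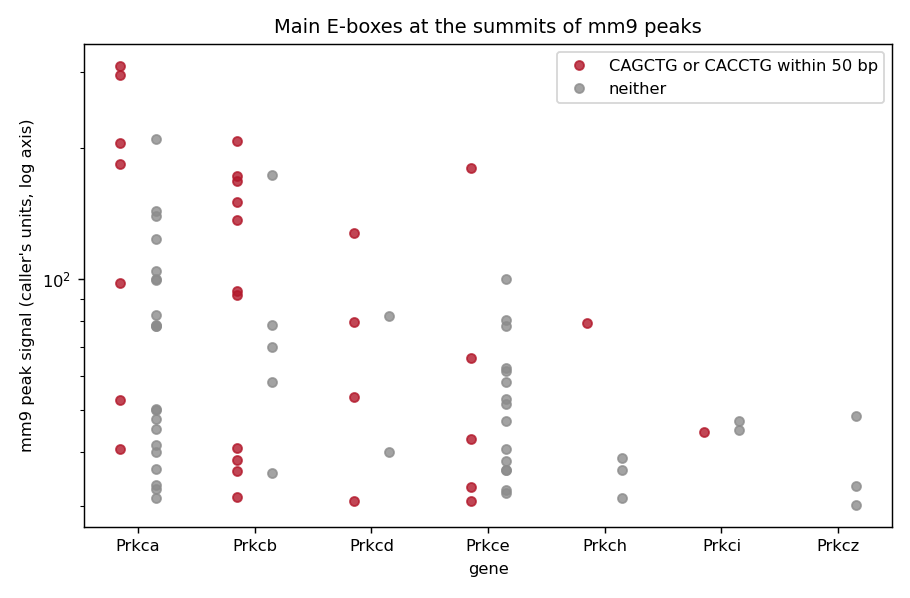
Signal of each mm9 peak in the caller's units on a log axis (y axis) by gene (x axis), in red where CAGCTG or CACCTG lies within 50 bp of the summit and grey where neither does. Red points make up 11 of 16 in Prkcb and 7 of 28 in Prkca, including the 2 strongest of Prkca.

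Away from promoters, these E-boxes were at 9 of 16 members' peaks (56.3%, 95% Wilson interval 33.2 to 76.9) with a signal of 100 or more and at 18 of 57 (31.6%, 21.0 to 44.5) below it. The intervals overlap and the difference was not tested. Over all mm9 peaks away from promoters the shares were 54.1% and 36.3%. Any CANNTG was within 50 bp in 62.5% of members' peaks and 52.1% of all. Other motifs searched on both strands were the octamer ATGCAAAT (0 of 80, against 2.25%), the PU.1 type GAGGAAGT (4, against 3.13%), the ETS motif CCGGAAGT (1, against 2.94%), the RUNX motif TGTGGT (12, against 11.4%) and the AP-1 motif TGANTCA (2, against 7.64%). The EBF1 motif, TCCC and GGGA with 2 bases of any kind between them, was in 0 of 80, against 1.15%. The NF-kappaB motif, GGG and TTTCC with 2 bases of any kind between them, was in 2, against 2.83%. At 80 peaks a count of 0 carries a Wilson upper limit of 4.58%, so neither zero differs from its background beyond counting error.

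The genes around the kinases were read from a list of 53 in 8 roles. Of these, 45 (84.9%) had a peak and 33 (62.3%) a promoter peak, beside 57.2% and 40.6% of all genes. The list was chosen with earlier results known, so these shares are a description. On the route from PKC to NF-kappaB, the signalling adaptor gene Bcl10 (strongest peak 102) and its partner gene Malt1 (66.7) had both. All 7 partners of the atypical kinases had a peak, with Sqstm1, the p62 scaffold, at 120, the polarity gene Pard6g at 110 and Llgl2 at 70.4. All 5 substrates and scaffolds did too, led by Rack1 (147), Marcksl1 (90.0) and Marcks (85.3). The 3 priming kinases each had a peak, with Mtor at 127.

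The next roles make, remove or bind diacylglycerol. Of 10 phospholipases C, which make it, 6 (60%) had a peak, near the 57.2% of all genes, led by Plcb3 (96.4), Plcg2 (94.2), the isoform downstream of the B cell receptor, and Plcd3 (89.7), with none at Plcb1 or Plcb4. Of 9 diacylglycerol kinases, which remove it, 8 (88.9%) had a peak, led by Dgkd (188), Dgkg (118) and Dgki (77.3), with none at Dgkb. Of 6 genes listed as other diacylglycerol receptors, 5 had one, led by Rasgrp2 (192), Rasgrp3 (174) and Rasgrp1 (47.4), with none at Chn2. Of 7 further kinases of the superfamily, 5 had one, led by Pkn2 (133), Prkd2 (56.2) and Pkn3 (52.2), with none at Prkd1 or Prkd3.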

How the data were processed

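TCF12 ChIP-seq peaks of 2 biological replicates were used as deposited, with members and gene lists chosen with earlier results of these data known. Per the deposited file descriptions, the authors called relaxed lists of 300000 peaks per replicate and pooled, with a control alignment, and derived optimal (35848) and conservative (35530) lists by the irreproducible discovery rate (IDR) step on mm10. Signal values are those the authors' peak caller wrote, on no stated scale, and scores are scaled IDR scores as deposited. Scores from 830 up stand for an IDR of 0.01 or less. Aligner and peak caller: not given in the sources used here. Read depth is unknown.

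Gene spans came from RefSeq (GRCm38.p6) and strand from RefSeq promoters, else GENCODE vM1, for 21317 of 21631 genes (98.5%). A replicate's value is its strongest relaxed peak overlapping by at least 1 bp. The RefSeq promoter table held 6 of 8 members, without Prkce and Prkch. Exon annotation and sequence used mm9 (NCBIM37, GENCODE vM1), with no conversion between builds. Named peaks are the 3 strongest of each member and its promoter and upstream peaks, and pathway genes are up to 3 with the strongest peaks and up to 2 without a peak per role, with 2 items not reported here. Scripts (Python 3.11.15, pandas 2.3.3) were tested on simulated data. No test was made, since 1 group leaves nothing to compare. Alternatives were other lists, windows, overlaps, E-box distances and each replicate alone.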

Additional observations from a re-analysis of the deposited data

How the results depend on the processing

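The number of members with a peak (8), of promoter peaks (7 members) and of peaks (116) stayed within 1.5 times of the values reported under every alternative run. With each replicate left out, the 35848 entries of highest signal in the other replicate's relaxed list were used, without a new IDR step. Members with a peak then ranged from 7 to 8 and peaks from 113 to 116, with 7 members with a promoter peak throughout. These lists were cut to the size of the optimal list, so the peak totals are not an independent measure of how well peaks repeat. Prkcq was the member lost, without replicate 1, at an IDR of 0.01 or less (79 peaks) and in the conservative list (110 peaks). At the stricter IDR, Prkch fell from 6 peaks to 2 and Prkcz from 6 to 1. The replicate ratio was 1.74 with reciprocal overlap of 50% and 1.72 with the nearest summit. The E-box share of 36.3% moved with the definition, as did that of all mm9 peaks: 17.5% (all 18.3%) within 25 bp, 47.5% (43.9%) within 100 bp, and 62.5% (52.1%) for any CANNTG. The members lay below all peaks at 25 bp and above at the others. No paired analysis was possible because there is 1 group. Read depth is unknown, so a gene without a peak may be one where binding was not detectable.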

Other observations

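The mm9 list held a Prkci peak at -8.20 kb from the 5' end, with a signal of 44.9, that has no counterpart in the mm10 optimal list. The mm10 conservative list does hold a peak at -8.19 kb, of 34.5, with entries of 22.1 in replicate 1 and 14.3 in replicate 2. The conservative list is therefore not contained in the optimal list at this gene.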
